A study of Mus musculus with 8 samples.

Results

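The 6 genes described here handle iron in phagocytes and their descendants: the 2 ferritin subunit genes Fth1 and Ftl1, the uptake receptor gene Tfrc, the transporter genes Slc11a1 and Slc40a1, and the haem-degrading enzyme gene Hmox1. What was measured is N4-acetylcytidine (ac4C), a cytosine carrying an acetyl group, in RNA. Acetylated RNA immunoprecipitation sequencing (acRIP-seq) pulls down RNA fragments with an antibody against ac4C, and each deposited list gives the places in mRNA where an immunoprecipitated library stood above its own input. The genes were chosen by name with peaks of these same lists in view, and a peak belongs to a gene if it shares 1 or more bases, on the gene's strand, with a span in mm39 rounded to whole kilobases. This gave 46 of the 105252 peaks in the 4 lists. After merging peaks of any list that share a base on the same strand, they made 31 of 75389 regions. Because peaks helped to choose the genes, the presence, number and strength of peaks are given as a description, with no test.

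The cells were bone marrow derived monocytes of mice, taken through osteoclast differentiation with RANKL, the ligand that drives monocytes to become bone-resorbing osteoclasts, for 3 days. One group was wild type (WT), and the other carried a conditional knockout (CKO) of Nat10, the gene of the enzyme that writes ac4C. All samples had the same RANKL treatment, so no undifferentiated cells are compared. The labels give no strain, no age and no promoter for the recombinase. There were 8 samples, 4 immunoprecipitated and 4 input, which the authors reduced to 2 lists per genotype (WT 1, WT 2, CKO 1, CKO 2).

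Iron metabolism works as a circuit of storage, entry and exit. Ferritin is a hollow shell of heavy and light subunits that stores iron inside the cell, and transferrin receptor 1 brings iron in with transferrin. Iron regulatory proteins bind hairpins in several of these mRNAs and set how much ferritin is translated and how long the transferrin receptor mRNA lasts. Macrophages recycle iron from old red cells by breaking down haem and exporting the iron through ferroportin. Osteoclasts, which are rich in mitochondria, raise transferrin receptor 1 and iron uptake as they form.

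The lists held 28065 (WT 1), 24851 (WT 2), 28087 (CKO 1) and 24249 (CKO 2) peaks. They give no read totals, so the depth behind each peak is unknown and no counting interval can be given. Lists differ in make-up: 6.51% of the WT 2 peaks were exactly 200 bases wide, against 24.0% to 24.4% in the other 3 lists. Each list was called on its own, so the score of a peak, which is the authors' value, is read here only as a rank within its list. The percentile of a peak is its rank from the lowest score, as a share of its list, with tied scores given their mean rank. An absent peak means only that no call is in the list. In such bulk samples fewer cells of a type and less RNA per cell cannot be told apart. Nat10 itself was not located in these lists, so its loss was not checked.

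Taken over all 6 genes, the genotypes held about as many peaks. Tfrc, which had more peaks in total than any other of the genes (18 of 46), had 6 in every WT list and 3 in every CKO list. The 6 spans together held 13 peaks in WT 1, 11 in WT 2, 14 in CKO 1 and 8 in CKO 2. The 2 CKO lists enclosed both WT lists, so the groups overlapped. The WT mean was 12 ± 1.41 and the CKO mean 11 ± 4.24 (SD over 2 lists each), and the difference of 1.0 peak was smaller than the spread between the CKO lists. Peaks covered 1534 and 1237 bases of the spans in WT and 1483 and 1259 bases in CKO. With 2 lists against 2, an exact two-sided permutation test cannot give a p below 0.333, so a group difference of any size would not pass a threshold of 0.05.

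**Figure D1:**
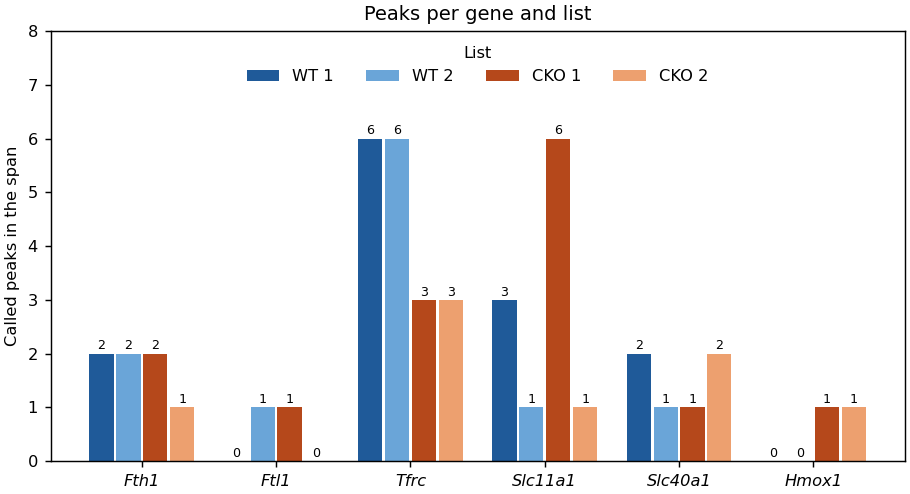
Called ac4C peaks (vertical axis, number of peaks) in the span of each of the 6 genes (horizontal axis), with a bar for each of the 4 lists; bars are single lists and have no error. Tfrc holds 6 peaks in either WT list against 3 in either CKO list, and Hmox1 holds 0 in either WT list against 1 in either CKO list; the other 4 genes overlap between the genotypes.

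Storage comes first. Fth1 encodes the ferritin heavy subunit, which oxidises iron on its way into the shell, and its span on chromosome 19 (plus strand, 9960 to 9963 kb) held the strongest peaks of the 6 genes in every list. Its counts were 2 peaks in WT 1, 2 in WT 2, 2 in CKO 1 and 1 in CKO 2. All 7 ranked within the first 11 of their list. The peaks fell into 3 places, and the lists agreed on only the middle one.

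The middle place began at base 9961545 in all 4 lists, to the base, and ended at 9961568 (WT 1), 9961570 (WT 2), 9961583 (CKO 1) and 9961584 (CKO 2). The peak was 24 and 26 bases wide in WT and 39 and 40 bases wide in CKO. So the first base was identical and the CKO peaks reached further, by 13 to 16 bases, without overlap in width between the genotypes. This was noticed after the values were seen, and of the 652 regions with 1 peak in each list 9.82% had both CKO peaks wider than both WT peaks. It ranked 8 of 28065 in WT 1, 5 of 24851 in WT 2, 11 of 28087 in CKO 1 and 6 of 24249 in CKO 2. The ranks of WT and CKO were interleaved.

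The first place, at bases 9960065 to 9960300, lay at the 5′ end of the span and was held by WT 1 and CKO 1 alone. It ranked 2 in WT 1 and 3 in CKO 1, above the middle place in both lists, and its 2 peaks differed by 1 base at the start and had the same last base. WT 2 and CKO 2 held no peak there although the middle place was among their 6 strongest peaks. This split runs by replicate number and not by genotype. The third place, bases 9961924 to 9961945, was held by WT 2 alone, at rank 10. Ferritin genes have processed copies elsewhere in the mouse genome; no source used here says how reads shared between such copies were assigned.

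Ftl1 encodes the light subunit, which helps the iron core to form, and its span on chromosome 7 (minus strand, 45107 to 45110 kb) had 2 peaks in all. WT 2 held an 11-base peak at 45108644 to 45108654, at percentile 99.83 (rank 44). CKO 1 held a 200-base peak at 45109101 to 45109300, at percentile 94.38. WT 1 and CKO 2 held none. The 2 peaks did not overlap, with 447 bases from one to the other, so Ftl1 had no place that lists shared. With 0 and 1 peaks in WT and 1 and 0 in CKO, the 2 genotypes had the same mean.

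Uptake is where the genotypes stood furthest apart in number of peaks. Tfrc encodes transferrin receptor 1, and its span on chromosome 16 (plus strand, 32427 to 32452 kb) held 6 peaks in WT 1, 6 in WT 2, 3 in CKO 1 and 3 in CKO 2. Every WT list exceeded every CKO list, and lists of a genotype had equal counts (SD 0.0, n = 2 each; a difference of 3.0). As a background, same-strand peaks with gaps of at most 5000 bases were joined into loci, and 10.7% of the 18175 loci with 2 or more peaks had more peaks in both WT lists than in either CKO list. A locus is not the same unit as the Tfrc span, whose peaks make 3 loci under this rule: 0, 1, 1 and 0 peaks (in the order WT 1, WT 2, CKO 1, CKO 2) at the 5′ end, 3, 3, 1 and 0 in the middle, and 3, 2, 1 and 3 at the 3′ end. In the middle locus alone did both WT lists exceed both CKO lists. In windows of 25 kb, the length of the span, 325 held at least the 18 peaks of Tfrc, and of these 7.08% had more peaks in both WT lists and 14.5% in both CKO lists. Covered bases showed the same order, with 865 and 869 in WT against 463 and 699 in CKO.

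Among the stronger calls the Tfrc counts kept the same order, by a narrow margin and at places that the WT lists did not share. In the upper 50% of each list by score, Tfrc kept 3 peaks in WT 1 and 2 in WT 2, against 1 in each CKO list, a difference of 1.5. A further CKO 1 peak, at 32428068 to 32428174, fell just short at percentile 49.97. With it CKO 1 would have equalled WT 2. None of the WT 1 peaks kept there shared a base with a WT 2 peak kept there. Both WT 2 peaks lay in regions where a CKO list also kept its peak. Among peaks of 200 bases or more, the difference was 0.5, with 2 in each WT list, 1 in CKO 1 and 2 in CKO 2, and the groups then overlapped. Part of the original calls is not in the lists: the Tfrc peaks of WT 1 ran over 8 consecutive call numbers, of which 2 are not in its list, and those of CKO 1 over 4, of which 1 is not. No number was skipped between the Tfrc peaks of WT 2 or CKO 2. Over whole lists, the peaks amounted to 45.3% of the highest call number in WT 1 and 62.8% in WT 2. In CKO 1 it was 46.8% and in CKO 2 52.8%. Missing call numbers are thus common in every list and not particular to Tfrc.

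The Tfrc peaks made 11 regions, and the best-held was near the 3′ end of the span. At bases 32449290 to 32449633 all 4 lists held a peak, at percentile 44.85 in WT 1, 98.77 in WT 2, 45.67 in CKO 1 and 80.82 in CKO 2. The lists of number 2 were both higher there than the lists of number 1, and the genotypes overlapped. All 4 peaks had 60 bases in common. In WT 2 this was the strongest Tfrc peak (rank 307).

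A second Tfrc region, at 32439184 to 32439339, was held by WT 1, WT 2 and CKO 1, which all began at base 32439184. Its width was 31 bases in WT 1, 56 in WT 2 and 156 in CKO 1, and its percentile 32.97, 74.21 and 93.31. It was thus widest and ranked highest in the only CKO list that held it, where it was the strongest Tfrc peak.

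Tfrc also held 2 of the 3 iron gene regions called in both WT lists and in no CKO list. The first, at 32435567 to 32435603, was 36 and 37 bases wide with the same first base, at percentile 67.1 in WT 1 and 37.6 in WT 2. Its nearest CKO peak was 3581 bases away. The second, at 32450089 to 32450540, was 452 and 267 bases wide, at percentile 84.84 in WT 1 and 19.61 in WT 2, and a CKO 2 peak at 32450932 to 32451131 lay 392 bases further along. That CKO 2 peak stood at percentile 0.05, near the bottom of its list. In both of these regions the WT 2 peak ranked lower in its list than the WT 1 peak did in its own.

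The other 7 Tfrc regions were held by 1 list each: 2 by WT 1, 2 by WT 2, 1 by CKO 1 and 2 by CKO 2. Among them was the strongest Tfrc peak of WT 1, at 32434011 to 32434116 (percentile 97.53). Its nearest CKO peak was 5068 bases away, and WT 2 had a peak of its own at 32433384 to 32433440. Of the 18 Tfrc peaks, 7 had their centre in the last 3000 bases of the 25-kb span. For want of an mm39 annotation these positions are not assigned to coding sequence or untranslated regions.

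**Figure D2:**
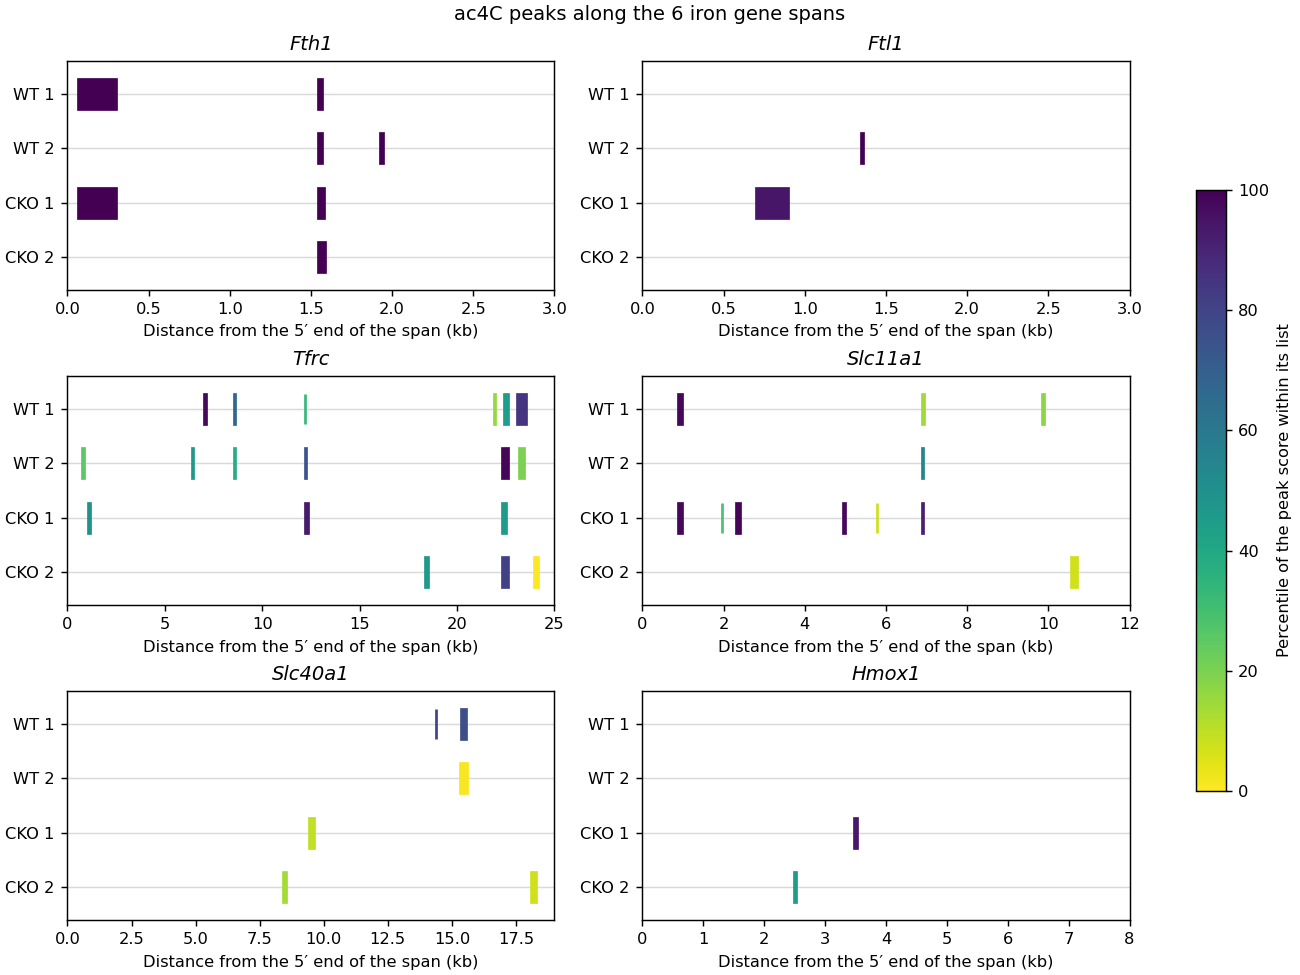
Every ac4C peak in the 6 gene spans, drawn to scale by its distance from the 5′ end of the span (horizontal axis, kb, read along the gene's strand) in each of the 4 lists (rows); the colour gives the percentile of its score within its list, and the outline of narrow bars makes them look slightly wider than they are. All 4 lists mark the same middle place of Fth1 and the same place near the 3′ end of Tfrc, and the peaks of Ftl1, Hmox1 and, between genotypes, Slc40a1 do not line up. Over all regions, 23.0% are held by lists of both genotypes.

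Slc11a1 encodes NRAMP1, which moves iron and other metals out of the phagosome of macrophages. Its span on chromosome 1 (plus strand, 74414 to 74426 kb) held 3 peaks in WT 1, 1 in WT 2, 6 in CKO 1 and 1 in CKO 2. The list with most and a list with fewest were both CKO, and the WT mean of 2.0 ± 1.41 and the CKO mean of 3.5 ± 3.54 (SD over 2 lists each) differed by 1.5, more than the WT SD and less than the CKO SD. Leaving out CKO 1 would leave 5 of the 11 peaks.

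In Slc11a1, 2 regions were held by more than 1 list, and neither followed the genotype. At bases 74414877 to 74414984, near the 5′ end of the span, WT 1 and CKO 1 held peaks of 107 and 108 bases with the same first base, at percentiles 98.16 and 98.37, and the lists of number 2 held none. At 74420895 to 74420937 a peak began at the same base in WT 1, WT 2 and CKO 1, with widths of 43, 29 and 11 bases and percentiles 14.11, 54.43 and 91.09. Here the narrowest peak ranked highest. CKO 1 alone had 4 further regions, and 2 of them were strong: 74416316 to 74416397 at percentile 98.83, the best Slc11a1 peak of any list, and 74418942 to 74419003 at 97.67. The nearest WT peaks to these were 1333 and 1892 bases away. The only Slc11a1 peak of CKO 2, at 74424552 to 74424708, stood at percentile 7.2.

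Slc40a1 encodes ferroportin, the exporter through which iron leaves the cell. Its span on chromosome 1 (minus strand, 45947 to 45966 kb) held 2 peaks in WT 1, 1 in WT 2, 1 in CKO 1 and 2 in CKO 2, so the counts of the genotypes overlapped. Their places did not coincide: none of the 5 regions of Slc40a1 was held by lists of both genotypes, and 4 were held by 1 list. Over all regions, 23.0% were held by lists of both genotypes and 69.1% by 1 list. With so few regions, nothing is read from this about Slc40a1. Both WT lists held a peak at 45950411 to 45950690, the third of the regions called in both WT lists and in no CKO list. WT 1 had it at percentile 76.41 and WT 2 at 1.14, so the 2 lists differed widely in its rank. The nearest CKO peak was 2499 bases away. The strongest Slc40a1 peak was another WT 1 peak, at 45951622 to 45951641 (percentile 79.38). The 3 CKO peaks, at 45956375 to 45956574 in CKO 1 and at 45947713 to 45947912 and 45957479 to 45957595 in CKO 2, stood at percentiles 9.53, 7.04 and 13.59. All 3 ranked below the WT 1 peaks and above the WT 2 peak.

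Hmox1 encodes haem oxygenase 1, the stress-induced enzyme that opens the haem ring and frees its iron. Its span on chromosome 8 (plus strand, 75820 to 75828 kb) held 0 peaks in WT 1, 0 in WT 2, 1 in CKO 1 and 1 in CKO 2. The groups did not overlap, but the 2 CKO peaks were in different places. CKO 1 had a 45-base peak at 75823478 to 75823522, at percentile 93.79, and CKO 2 a 46-base peak at 75822484 to 75822529, at percentile 44.84. With no shared base, they made no region held by both CKO lists. The nearest WT peak on that strand was 13196 bases from the CKO 1 peak. Of the loci with 2 or more peaks, 9.61% had more peaks in both CKO lists than in either WT list. In the upper 50% of each list the CKO 1 peak alone was left.

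Seen by rank, the Fth1 peaks stood at the top of their lists. The Ftl1 peaks were at percentile 99.83 in WT 2 and 94.38 in CKO 1, where 3 Slc11a1 peaks ranked higher. Apart from ferritin, the peaks of the other 4 genes ran from percentile 14.11 to 98.16 in WT 1 and 1.14 to 98.77 in WT 2. In the CKO lists they ran from 7.76 to 98.83 (CKO 1) and 0.05 to 80.82 (CKO 2). Of the 46 peaks, 14 (30.4%) stood at or above percentile 95, a level that 5% of all peaks reach by construction, and 7 of these 14 were the Fth1 peaks. Without Fth1 it was 7 of 39 (17.9%), and the median percentile fell from 70.7 to 46.3. Slc11a1 had 4 such peaks, Tfrc 2, Ftl1 1, and Slc40a1 and Hmox1 0. The median percentile of the iron gene peaks was 76.4 in WT 1, 54.4 in WT 2, 93.6 in CKO 1 and 29.2 in CKO 2. The highest and the lowest median were thus both CKO lists. By gene, the lowest Fth1 peak, at 99.96, ranked above the highest Slc40a1 peak, at 79.38. The level of these mRNAs is not in the files used here, so rank was not set against abundance.

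**Figure D3:**
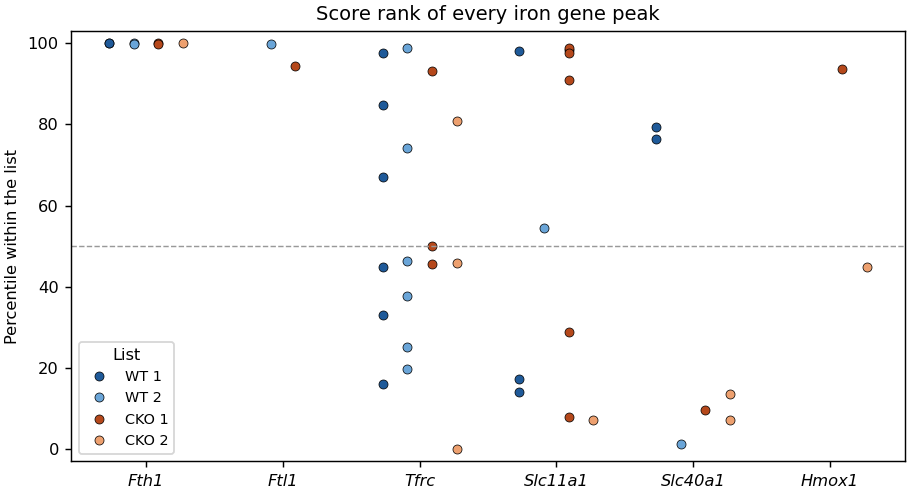
Percentile of the authors' score within its own list (vertical axis, 0 to 100) for each of the 46 peaks, by gene (horizontal axis) and list (colour); the dashed line marks the middle of a list. All Fth1 peaks lie at the top, Slc40a1 peaks reach at most 79.38, and Tfrc and Slc11a1 peaks run from near the bottom of a list to above percentile 97.

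Per kilobase of span, Fth1 had the densest peaks, at 0.667 in 3 lists and 0.333 in CKO 2. Ftl1 had 0.333 in WT 2 and CKO 1, Tfrc 0.24 in WT and 0.12 in CKO lists, and Slc11a1 0.0833 to 0.5. Hmox1 reached 0.125 in each CKO list, and Slc40a1 had 0.0526 to 0.105. The length used is that of the span and not of the mRNA, so these densities order the spans alone. Within each list Fth1 was the densest, but ranges over the lists overlapped. Slc11a1 had 0.5 in CKO 1, above the 0.333 of Fth1 in CKO 2. The ranges of Tfrc, Slc11a1 and Ftl1 overlapped, and those of Slc40a1 and Hmox1 overlapped the ranges of Slc11a1 and Ftl1.

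Across the 31 regions, sharing between lists was close to that of all regions at the level of single calls. A single list held 22 regions (71.0%, against 69.1% of all regions), and lists of both genotypes held 6 (19.4%, against 23.0%). Both WT lists and no CKO list held 3 of the 31 regions, where the background is 4.26%. In the upper 50% of each list 0 of these 3 were left, because the WT 2 peak of each ranked below the middle of its list. Both CKO lists and no WT list held 0 of the 31, where the background is 3.64%. All 4 lists held 2, those of Fth1 and Tfrc described above, where the background is 0.964%. Since a gene with many or strong peaks was more likely to be chosen, nothing is read from these shares about iron genes as a class.

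**Figure D4:**
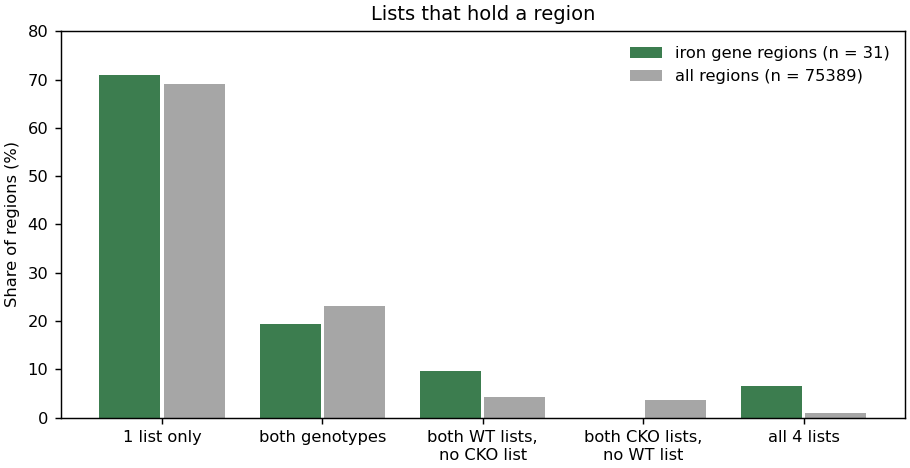
Share of regions (vertical axis, %) by which lists hold them (horizontal axis), for the 31 iron gene regions and for all 75389 regions; regions in all 4 lists are also counted under both genotypes. The shares held by 1 list are 71.0% and 69.1%; the 3 regions of both WT lists without CKO, the 0 of both CKO lists without WT and the 2 of all 4 lists are small counts.

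The sharing of bases was also compared pair by pair. The Jaccard index, the bases shared by a pair of lists over the bases that either covers, was 0.3967 for the 2 WT lists within the 6 spans, against 0.0983 over all peaks. For the 2 CKO lists it was 0.0955, against 0.0899. Among pairs that mix the genotypes, WT 1 had 0.1836 with CKO 1 and 0.0863 with CKO 2. For WT 2 the index was 0.1207 when paired to CKO 1 and 0.1729 when paired to CKO 2. The WT pair was the highest of the 6, also without Fth1, at 0.4488 against 0.0863 to 0.1655 for the others. It rests on 787 shared bases in 7 regions, and 503 of these bases (63.9%) lie in the 3 regions called in both WT lists and no CKO list, where the WT 2 peaks stood at percentiles 37.6, 19.61 and 1.14. In the upper 50% of each list the WT pair shared 24 bases and had the lowest index of the 6, 0.0146. WT 1 with CKO 2 also shared 24 bases, at 0.0156. The highest index was 0.7331, for WT 2 with CKO 2. It rests on 368 shared bases, 342 of them in the Tfrc place near the 3′ end and the rest in the middle place of Fth1. These were the only 2 peaks that CKO 2 kept. The order of the pairs thus depends on which calls are kept. The CKO pair shared 239 bases in 2 regions.

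Lists thus met in few places, and of the 5 regions held by exactly 2 lists, 3 were of WT 1 with WT 2 and 2 of WT 1 with CKO 1. Over all regions these pairs make up 18.0% and 17.9% of the regions held by exactly 2 lists. By list, 9 of 13 peaks in WT 1 and 7 of 11 in WT 2 were shared with another list (69.2% and 63.6%, against 49.3% and 53.2% of all peaks of those lists). In CKO 1 it was 6 of 14 and in CKO 2 2 of 8 (42.9% and 25.0%, against 48.4% and 51.5%). The WT shares exceeded those of their whole lists and the CKO shares were below them; with 8 to 14 peaks in a list, these are small counts.

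Where lists met, they often met at the same first base. Of the 9 regions held by 2 or more lists, 6 (66.7%) had a first base common to at least 2 lists, counting along the chromosome, and 2 (22.2%) had a common last base. Over all regions held by 2 or more lists, 44.2% had a common first base, 43.9% a common last base and 74.0% either, and in the iron genes 7 of 9 (77.8%) had either. The strictest cases were Fth1, where all 4 lists began at 9961545, and Tfrc and Slc11a1, where 3 lists began at 32439184 and at 74420895. Whether these bases are exon ends was not tested.

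No peak crossed the edge of a rounded span. In every span except that of Hmox1, a peak lay less than 1000 bases inside an edge. The unrounded ends of the genes were not at hand, so whether the rounding let in such a peak was not checked. The smallest margin was 64 bases, from the span start to the first Fth1 peak, and the nearest same-strand peak outside a span was 4730 bases away, beyond the Ftl1 span. No peak lay on the opposite strand within any of the 6 spans.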

How the data were processed

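Per the labels' protocols, total RNA was fragmented, incubated with an ac4C antibody and sequenced as paired-end reads beside its input. Tools named in the submitters' processing notes are MACS2 2.2.7.1, STAR 2.7.8a and fastp 0.20.1, with mm39 as the build. The files are peak lists called per library, with a score that the authors gave each peak. No source used here says which quantity of the caller this deposited score is, or how strands were set and peaks limited to mRNA. The lists were matched to samples by the library code in the titles, and genotypes were taken from the labels. Nothing says whether lists of a genotype came from separate mice.

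Positions were read as BED and are printed counting from 1. Peaks sharing a base on a strand were merged into regions with Python 3.11.15, numpy 2.4.6 and pandas 2.3.3, and the merging was tested on simulated lists. Depth is unknown. The genes, the lists and the settings were chosen with earlier results of these data known. Within each gene, regions held by 3 or 4 lists or by both lists of a genotype alone, and the strongest peaks, are named by position; the other regions described were chosen after their values were seen. No mm39 genome or annotation was at hand, so peak sequences, exons and other iron genes were not analysed here.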

Additional observations from a re-analysis of the deposited data

How the results depend on the processing

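The difference in peaks over the 6 genes (WT minus CKO mean, 1.0) moved by less than the spread between lists under all 14 other settings, but it changed sign when 1 list was left out (-2.0 without CKO 2, up to 4.0 without CKO 1). The Tfrc difference of 3.0 fell to 1.5 in the upper 50% of each list and to 0.5 when peaks under 200 bases were dropped, and the Hmox1 difference of -1.0 to -0.5 and 0.0; these settings keep fewer peaks, and for single genes they were chosen after seeing the data. The 3 regions of both WT lists alone came to 0 in the upper 50%, and the 2 regions of all 4 lists to 1 there and 1 among peaks of 200 bases or more. Leaving out 1 list gave 3 to 7 regions of WT alone and 0 to 8 of CKO alone, since 1 list then has to represent its genotype. The same holds for the replicate block, which sets lists of the same number side by side: 8.0 regions of WT alone and 7.0 of CKO alone on average, with the peak difference unchanged at 1.0 (-1.0 and 3.0 in the pairs). Nothing in the labels says that equal numbers mark a shared mouse or batch. Wider spans, either strand, whole peaks within a span, joined peak names, merging across 100 bases and 50% overlap changed none of these 6 values. The span and strand settings could not change them, since no peak crossed an edge, lay within 1000 bases outside a span or lay on the opposite strand. Merging and overlap settings do not enter the differences in peaks. All of these are among the 14 settings, so that count overstates how far the values were tried. The 25-kb windows and the overlap of lists in their upper 50% were likewise added after seeing the data. The unknown depth limits all of these values.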
